A study of Mus musculus with 6 samples.

Results

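A set of 9 complement genes was followed in J774 cells, a mouse macrophage line, after transfection with control siRNA or NCOA4 siRNA. The set holds the C1q chain genes C1qa, C1qb and C1qc, the central component C3, properdin (Cfp), factor B (Cfb), the anaphylatoxin receptors C3ar1 and C5ar1, and the C1 inhibitor (Serping1). These 9 genes were taken by name from the 55487 gene identifiers of the series, and each name matched 1 identifier. The set was chosen with earlier results of these data known. RNA-seq of poly(A)-selected, stranded libraries was made from 3 biological replicates with control siRNA (genotype label: control) and 3 with NCOA4 siRNA (genotype label: NCOA4 knockdown), and no other treatment is given for either group. The siRNAs were delivered with a lipid reagent, and the study's methods name a single siRNA against Ncoa4, so effects of losing Ncoa4 and other effects of that siRNA cannot be told apart. The labels of these libraries state no time between transfection and RNA isolation.

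The complement system is a cascade of plasma proteins that marks microbes, immune complexes and dying cells for removal. C1q is the recognition protein of the classical pathway and is built from A, B and C chains, each the product of its own gene, with macrophages as a main source. C1q binding leads through the proteases C1r and C1s to cleavage of C4, C2 and then C3. C3 is also activated by the alternative pathway, which uses factor B and is stabilized by properdin, and the fragments C3a and C5a act on myeloid cells through C3ar1 and C5ar1.

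Reads on genes numbered 15740333 to 18565408 per library, as rebuilt from TPM and gene length. TPM is the authors' unit of transcript abundance, in which reads are divided by gene length and scaled to the same sum in each library. For the members this length is that of all annotated exons, so comparisons between genes depend on the annotation. In control replicate 1, C1qc had 1240 reads on 1931 exonic bases and C1qa 878 on 1040, while C1qa was higher in TPM. Control replicate 1 stood apart from the other control libraries, with a chi-square per gene of 11.8 against each of them, where the other control pair gave 3.62 and the NCOA4 siRNA pairs gave 1.96 to 2.38. Genes of the mitochondrial genome held 12.9% of its TPM and 9.36% to 10.2% in the other 5 libraries. The tests of the members were also run without this library, as they were without each of the others in turn. Ncoa4 itself stood at 41.9% of the control mean (log2 fold change -1.21, limma, Benjamini-Hochberg-adjusted p = 0.00127), with every NCOA4 siRNA library below every control library.

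All 12 macrophage markers checked were above the low-value filter in J774 cells, led by Lyz2 at 4885 TPM and Cd68 at 1832 TPM with control siRNA. Of these 12 markers, 5 rose and 1 fell at an adjusted p under 0.05, where 3.11% of all genes tested rose and 2.31% fell. The log2 fold changes were 0.61 for Adgre1, which encodes F4/80, 0.59 for the Fc receptor gene Fcgr1, 0.48 for Mertk, a receptor for the uptake of dying cells, 0.31 for Csf1r, 0.23 for Laptm5 and -0.27 for Cd14. Adgre1 (limma, Benjamini-Hochberg-adjusted p = 0.0248) and Fcgr1 (adjusted p = 0.00436) were also past 1.5-fold, and the size of their changes was near those of C1qa and C1qc given below. The summed level of the 12 markers, most of it from Lyz2, Cd68 and Cd14, was 9267 to 9434 TPM in control libraries and 9675 to 9798 TPM in NCOA4 siRNA libraries, and the part of these shifts in the results for complement genes was not tested. Most markers of other cell types were listed at 0 or stayed under the filter, and the exceptions were Hp, Lck and S100a8. The 6 fibroblast genes summed to at most 0.0265 TPM in any library, and the 5 epithelial genes to at most 0.150 TPM. Of the hepatocyte genes, Alb, Apoa1, Ttr and Serpina1a were listed at 0 in every library, and only haptoglobin (Hp) passed the filter, at 1.83 ± 0.758 TPM in the control group and 3.59 ± 0.826 TPM after NCOA4 siRNA (SD, n = 3 each, limma, Benjamini-Hochberg-adjusted p = 0.156). Among T cell genes only Lck passed the filter, at 5.04 and 5.05 TPM, and among neutrophil genes only S100a8, at 22.6 and 18.1 TPM. None of the 5 B cell genes passed it, and they summed to at most 0.534 TPM.

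The C1q genes lie side by side on the minus strand of chromosome 4 (GRCm38, GENCODE M21), within 18675 bases, in the order C1qa, C1qc, C1qb along the direction of transcription. C1qa (ENSMUSG00000036887) spans positions 136895917 to 136898803, C1qc (ENSMUSG00000036896) 136889804 to 136893065, and C1qb (ENSMUSG00000036905) 136880129 to 136886187. Gaps of 2851 and 3616 bases separate them, and no exon of any of them is shared with another gene on the same strand. C3 (ENSMUSG00000024164) lies on chromosome 17 from 57203970 to 57228136, also on the minus strand.

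RefSeq promoter entries of GRCm38.p6 were found for 6 of the 9 genes (C1qb, C1qc, C3, Cfp, C3ar1 and C5ar1), and not for C1qa, Cfb and Serping1. The 250 bases before the annotated start are shown for C1qb, the C1q chain with the smallest fold change, and for C3, the member from another locus that passed the fold change threshold. Capitals mark matches, on either strand, to the 6 short motifs searched.
C1qb, chr4:136886201-136886450, minus strand: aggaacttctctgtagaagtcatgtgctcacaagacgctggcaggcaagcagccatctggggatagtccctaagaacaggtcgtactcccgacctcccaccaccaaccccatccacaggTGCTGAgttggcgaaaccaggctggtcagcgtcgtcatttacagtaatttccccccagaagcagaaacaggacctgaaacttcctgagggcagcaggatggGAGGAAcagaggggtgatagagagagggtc
C3, chr17:57228137-57228386, minus strand: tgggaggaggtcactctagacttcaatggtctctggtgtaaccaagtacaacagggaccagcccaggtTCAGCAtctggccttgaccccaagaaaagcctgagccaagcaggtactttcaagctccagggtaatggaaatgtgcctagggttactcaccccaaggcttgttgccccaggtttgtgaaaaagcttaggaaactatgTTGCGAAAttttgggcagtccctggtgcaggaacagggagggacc

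The motifs were cores known for factors of macrophages and the acute phase, namely TGCTGA (Maf proteins), GAGGAA (PU.1), TTCNNNGAA (STAT proteins), GAAANNGAA (interferon-stimulated response element), GGANTTTCC (NF-kB) and TTGCNNAA (C/EBP proteins). TGCTGA or its reverse complement stood in 4 of the 6 promoters (C1qb, C3, C3ar1 and C5ar1) and in 16.1% of all 32851 promoter windows of this length. The genes with it included 2 that rose and 2 receptors whose changes did not pass the test. GAGGAA stood in C1qb and C1qc, and in 23.3% of all windows. The C/EBP core stood in C3 alone, 45 to 38 bases before its start, and in 9.56% of windows, and the interferon core stood in C5ar1 alone, against 7.13% of windows. The RefSeq start of C5ar1 lies inside the gene as GENCODE M21 draws it, and so do both matches in its window. The C1qc window also reaches into the GENCODE gene and its untranslated region, and is not printed for that reason, while its GAGGAA match lies before the gene. The STAT and NF-kB cores were in 0 of the 6, and in 7.02% and 1.07% of windows. Cfp held none of the 6 motifs. These matches are letters in a window and say nothing of binding.

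All 3 C1q transcripts were more abundant with NCOA4 siRNA. With control siRNA, C1qa stood at 147, 130 and 131 TPM in replicates 1 to 3, and with NCOA4 siRNA at 224, 221 and 235 TPM, in the same order as throughout. C1qc stood at 112, 113 and 123 TPM with control siRNA and at 178, 191 and 197 TPM with NCOA4 siRNA. In both genes the lowest NCOA4 siRNA library was well above the highest control library. C1qb, the most abundant chain, stood at 314, 295 and 282 TPM with control siRNA and at 374, 406 and 403 TPM with NCOA4 siRNA, again without overlap. The values rest on 710 to 1477 reads per library for C1qa, 1240 to 2293 for C1qc and 1598 to 2648 for C1qb.

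**Figure D1:**
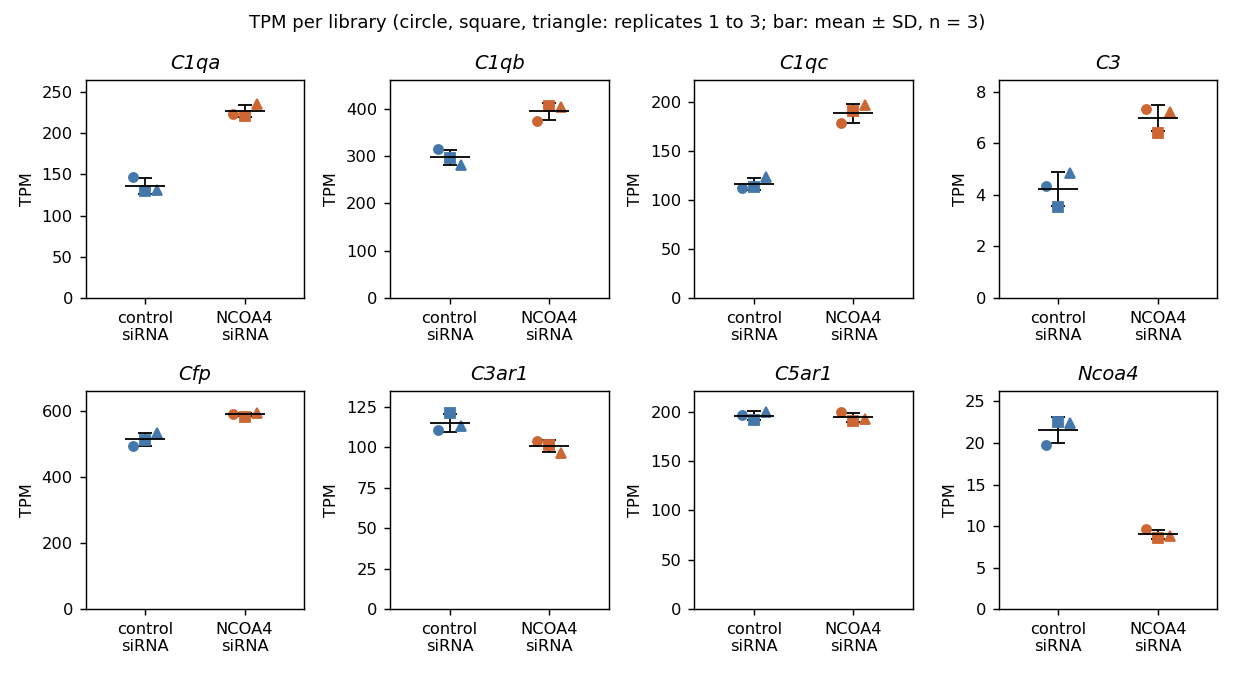
TPM per library (vertical axes, each starting at 0) of the 7 members that could be tested and of Ncoa4, with control siRNA and NCOA4 siRNA on the horizontal axes; symbols are replicates 1 to 3, and bars are the mean ± SD (n = 3). The NCOA4 siRNA libraries lie above all control libraries for C1qa, C1qb, C1qc, C3 and Cfp, below them for C3ar1 and Ncoa4, and among them for C5ar1.

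Differences were tested with limma on log2(TPM + 0.5) over the 13829 genes with a mean of at least 0.5 TPM, and the word called is kept for genes past 1.5-fold whose adjusted p was also below 0.05. C1qa rose by a log2 fold change of 0.74 ± 0.0580 SE (limma, Benjamini-Hochberg-adjusted p = 0.00216), a fold of 1.67 with a 95% interval of 1.52 to 1.84. C1qc rose by 0.70 on the log2 scale ± 0.0561 SE (adjusted p = 0.00228, same test), a fold of 1.62 with an interval of 1.48 to 1.78. C1qb rose by 0.41 ± 0.0551 SE (adjusted p = 0.0116, same test), a fold of 1.33 with an interval of 1.21 to 1.45, so that its whole interval lay under the threshold of 1.5. C1qa and C1qc were called under all 16 tested alternatives, and their log2 fold changes stayed within 0.68 to 0.80 and 0.64 to 0.74. C1qb was called under none of them, and its adjusted p rose to 0.0731 without NCOA4 siRNA replicate 2 and to 0.0662 without replicate 3. Without control replicate 1, the log2 fold changes of C1qa, C1qb and C1qc were 0.80, 0.45 and 0.67.

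Because each C1q molecule contains all 3 chains in equal number, the transcripts were also added and set against each other. Their sum was 573, 538 and 536 TPM with control siRNA and 776, 818 and 835 TPM with NCOA4 siRNA, without overlap. The sum thus went from 549 ± 20.8 to 810 ± 30.7 TPM (SD, n = 3 each) and was 1.47-fold higher (p = 0.1 by an exact two-sided permutation test, which cannot give a smaller p for 3 libraries against 3). In TPM the chains were not equally abundant in either group, and C1qb alone made up 54.1% ± 1.29 of the sum in control libraries and 48.7% ± 0.827 of it after NCOA4 siRNA (SD, n = 3 each). These shares depend on the exonic lengths used for TPM.

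The ratios of C1qb to the other chains did not overlap between the groups, in a design too small for these tests to reach 0.05. The ratio of C1qa to C1qb was 0.468, 0.440 and 0.465 with control siRNA and 0.599, 0.545 and 0.584 with NCOA4 siRNA, 1.26-fold higher and without overlap. The ratio of C1qb to C1qc was 2.81, 2.60 and 2.29 with control siRNA and 2.10, 2.13 and 2.05 with NCOA4 siRNA, also without overlap, and the control libraries spread more widely than the others. For each of these ratios the exact two-sided permutation test gave p = 0.1, the smallest p possible here, and 0.15 after Benjamini-Hochberg adjustment over the 3 ratios. The ratio of C1qa to C1qc was 1.17 ± 0.129 in control libraries and 1.20 ± 0.0486 after NCOA4 siRNA (SD, n = 3 each), and the groups overlapped (exact two-sided permutation test, p = 0.8, adjusted p = 0.8). Without control replicate 1, the log2 difference of the ratio of C1qb to C1qc went from -0.29 to -0.22, and that of C1qa to C1qb from 0.33 to 0.35.

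**Figure D2:**
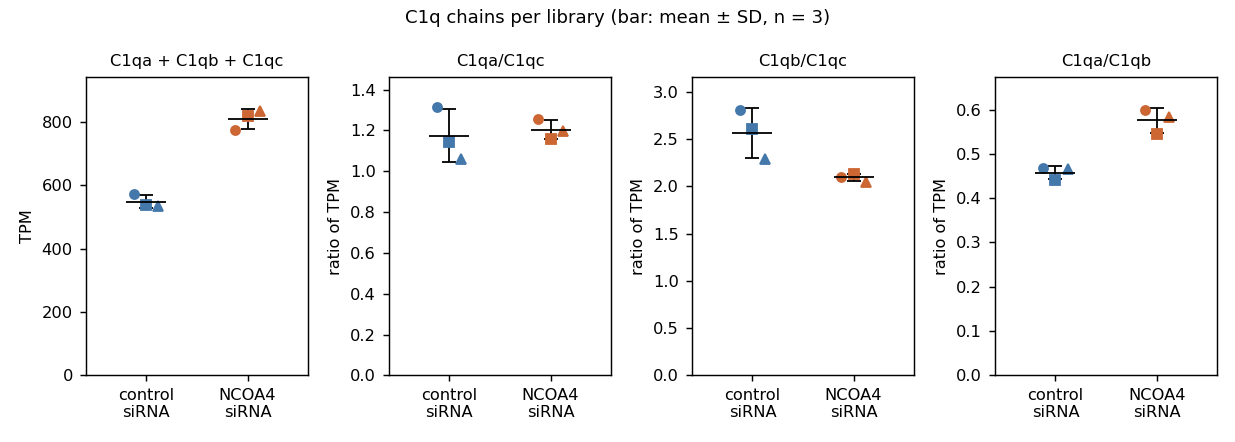
Summed TPM of C1qa, C1qb and C1qc (left) and the 3 ratios of chain TPM (vertical axes, each starting at 0) in each library of both groups; symbols are replicates 1 to 3, and bars are the mean ± SD (n = 3). The sum is 1.47-fold higher with NCOA4 siRNA, the ratio of C1qa to C1qc overlaps between the groups, and both ratios with C1qb do not.

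C3, the component on which all activation pathways converge, was low in J774 cells. It stood at 4.33, 3.53 and 4.85 TPM with control siRNA and at 7.33, 6.39 and 7.22 TPM with NCOA4 siRNA, on 110 to 130 and 179 to 224 reads per library. The groups did not overlap, and C3 rose by a log2 fold change of 0.67 ± 0.126 SE (limma, Benjamini-Hochberg-adjusted p = 0.0321), a fold of 1.59 with a 95% interval of 1.29 to 1.95. The size was close to that of C1qa and C1qc, but the level was far lower and the call was less stable. C3 was called under 7 of 16 alternatives, with adjusted p-values from 0.00161 with limma-voom on the rebuilt reads to 0.136 without NCOA4 siRNA replicate 1. It was not called without control replicate 1 (0.0587), control replicate 2 (0.0562), or NCOA4 siRNA replicate 2 (0.0968) or 3 (0.129).

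Properdin, a stabilizer of the alternative pathway convertase that myeloid cells secrete, was the most abundant member. Cfp (ENSMUSG00000001128, chromosome X, 20925454 to 20931555) stood at 494, 513 and 534 TPM with control siRNA and at 591, 583 and 594 TPM with NCOA4 siRNA. Every NCOA4 siRNA library was above every control library, although the rise was small, with a log2 fold change of 0.20 ± 0.0407 SE (limma, Benjamini-Hochberg-adjusted p = 0.0415) and a fold of 1.15 (95% interval 1.07 to 1.23). This adjusted p was above 0.05 in 9 of 16 alternatives, among them median centring (0.0745), control replicate 2 left out (0.0885) or control replicate 3 left out (0.0514), and NCOA4 siRNA replicate 1, 2 or 3 left out (0.165, 0.153 and 0.160). It was 0.0301 without control replicate 1.

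Factor B and the C1 inhibitor could not be compared. Cfb (ENSMUSG00000090231, chromosome 17, 34856374 to 34862518) was listed at 0 in all 6 libraries, where 3 reads over its whole exonic length would have been worth 0.175 to 0.204 TPM. Of its 2825 exonic bases, 2246 (79.5%) also belong to exons of Gm20547, a gene model on the same strand that runs on into C2 and was likewise listed at 0. How reads on exons of both were counted is not given in the sources used here, nor whether counting used the strand. The 0 may thus cover no more than the 579 bases that Cfb shares with no gene on its strand. Over those bases alone, the limit of 3 reads would be higher than the one given. Serping1 (ENSMUSG00000023224, chromosome 2, 84765387 to 84775444) had 1 read in control replicate 1, 2 reads in NCOA4 siRNA replicate 3 and 0 reads in the other 4 libraries. That is under the limit that 3 reads set, 0.213 to 0.248 TPM, and no fold change is given.

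The changes of the anaphylatoxin receptors did not pass the test. C3ar1 (ENSMUSG00000040552, chromosome 6, 122847138 to 122856161), the receptor for C3a, stood at 111, 121 and 113 TPM with control siRNA and at 104, 102 and 96.3 TPM with NCOA4 siRNA. Each NCOA4 siRNA library was below each control library, with a log2 fold change of -0.19 ± 0.0505 SE, but limma gave a Benjamini-Hochberg-adjusted p of 0.0854, and the fold of 0.876 had a 95% interval of 0.807 to 0.952. It was 0.0194 after median centring and 0.0255 with limma-voom, within a range of 0.0194 to 0.254 over the alternatives, and 0.0649 without control replicate 1. C5ar1 (ENSMUSG00000049130, chromosome 7, 16246743 to 16259540), the main signalling receptor for C5a, stood at 197, 191 and 200 TPM with control siRNA and at 200, 190 and 192 TPM with NCOA4 siRNA. Its groups overlapped, its log2 fold change was -0.01 ± 0.0376 SE (adjusted p = 0.883, same test), and the 95% interval of the fold was 0.932 to 1.05. Without control replicate 1 its log2 fold change was again -0.01 (adjusted p = 0.911, same test). The neighbouring gene C5ar2, which encodes the second C5a receptor, lies 2588 bases away and stood at 5.40 ± 0.360 and 6.02 ± 0.343 TPM (SD, n = 3 each), far below C5ar1 in both groups (adjusted p for the difference between groups = 0.409, same test).

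Of the 9 members, 7 passed the filter on low values. Of all genes tested, 0.861% were called as higher, and 3 members were (C1qa, C1qc and C3). At an adjusted p under 0.05 and any fold change, 3.11% of genes tested were higher and 2.31% lower, against 5 members higher and 0 lower. Every NCOA4 siRNA library was above every control library for 16.6% of genes tested and for 5 members, and every one was below for 11.8% and for 1 member, C3ar1. The median log2 fold change was 0.41 over the 7 members and 0.03 over all genes tested. In bulk RNA a change per cell and a change in the share of cells that express a gene cannot be told apart.

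**Figure D3:**
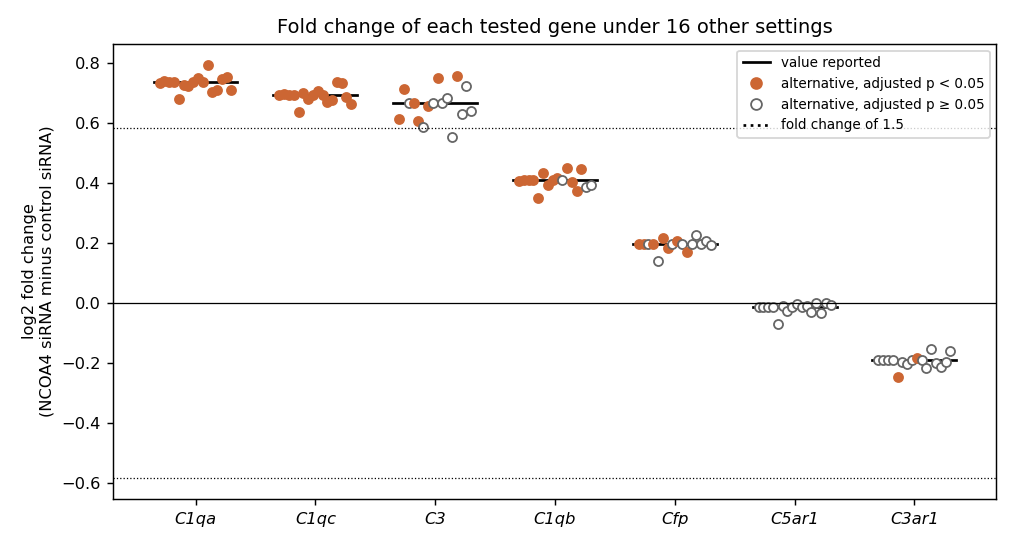
Log2 fold change, NCOA4 siRNA minus control siRNA (vertical axis), of each tested member (horizontal axis) as reported (line) and under 16 other settings of the test (points; filled where the adjusted p was under 0.05); dotted lines mark a fold change of 1.5. All points of C1qa and C1qc are filled and above the upper dotted line, those of C3 are filled in 7 of 16 cases, and those of C1qb lie under the line.

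The order of the members by TPM, which depends on the exonic lengths used, was largely shared by the groups. Cfp was highest, C1qb next, and C3ar1, C3, Serping1 and Cfb were at the end. With control siRNA, C5ar1 (191 to 200 TPM) was above C1qa (130 to 147 TPM), whereas C1qc and C3ar1 (111 to 121 TPM) had overlapping ranges. With NCOA4 siRNA, C1qa (221 to 235 TPM) was above C5ar1 (190 to 200 TPM), and C5ar1 now overlapped with C1qc. Among all genes tested, C1qa stood at the percentile 91.7 of mean TPM with control siRNA and 95.3 with NCOA4 siRNA, C1qb at 96.5 and 97.6, and C1qc at 90.1 and 94.2. C3 stood at 25.6 and 31.9, which places it among the lower genes tested in both groups.

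The other genes of the system were taken from a list of 56 complement genes, 9 of them the members. In this list 18 genes were listed at 0 in every library, 14 were above 0 but under the filter, and 24 were tested. Of those 24, 6 rose at an adjusted p under 0.05 and 0 fell, and 4 were called. Members made up 5 of these 6 and 3 of these 4. Among the tested genes that are not members, 1 rose, 0 fell and 1 was called. Of all genes tested, 3.11% rose and 2.31% fell at that adjusted p, and 0.861% were called as higher. The 17 tested genes that are not members had a median log2 fold change of 0.07.

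Clusterin (Clu), a fluid-phase regulator, stood at 17.1 ± 1.31 and 15.9 ± 0.659 TPM (SD, n = 3 each, adjusted p = 0.512, limma with Benjamini-Hochberg correction).

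The proteases and substrates that act after C1q were low, and none passed the test. C1ra, for the protease C1r, stood at 17.7 ± 1.78 and 18.0 ± 0.803 TPM in the control and NCOA4 siRNA groups (SD, n = 3 each, log2 fold change 0.03, limma, Benjamini-Hochberg-adjusted p = 0.884). C1s1, for its partner C1s, was listed at 0 in every library. C4b stood at 1.28 ± 0.325 and 1.98 ± 0.449 TPM (SD, n = 3 each), without overlap between the groups but with an adjusted p of 0.279 (same test), and its close relative C4a stayed under the filter, so that reads could have been split between them. C2, which shares 42.8% of its exonic bases with Gm20547, stood at 0.738 and 0.913 TPM (adjusted p = 0.667, same test).

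Terminal components were nearly silent, since 4 of the 7 genes were listed at 0 in every library and none passed the filter. The lectin pathway had 2 tested genes. Ficolin A (Fcna) stood at 28.3 ± 4.78 and 30.9 ± 1.75 TPM (SD, n = 3 each, limma, Benjamini-Hochberg-adjusted p = 0.545). Masp2 was low, at 1.15 ± 0.279 and 1.28 ± 0.565 TPM (SD, n = 3 each, adjusted p = 0.916, same test). Among membrane regulators only Cr1l, which encodes the rodent C3 regulator Crry, was tested, at 21.3 ± 1.55 and 23.4 ± 0.892 TPM (SD, n = 3 each, adjusted p = 0.313, same test).

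Receptors and binding proteins for complement formed the largest tested group, with 10 of 12 genes tested, 4 higher and 6 lower, and 0 of them below 0.05 in limma after Benjamini-Hochberg adjustment, against 3 (C3ar1, Itgam and Calr) at an unadjusted p under 0.05. The median log2 fold change of this group was -0.04. The chains of complement receptor 3 stood at 45.4 ± 2.65 and 51.7 ± 0.585 TPM for Itgam (SD, n = 3 each, adjusted p = 0.101, same test) and at 220 ± 3.61 and 225 ± 2.49 TPM for Itgb2 (SD, n = 3 each, adjusted p = 0.644). Itgam shares 68.7% of its exonic bases with the gene model Gm49368. Calreticulin (Calr), an endoplasmic reticulum chaperone that can also bind C1q, stood at 1273 ± 78.0 and 1135 ± 23.6 TPM (SD, n = 3 each, adjusted p = 0.139, same test). The receptor Vsig4, found on some tissue macrophages, was listed at 0 in every library.

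**Figure D4:**
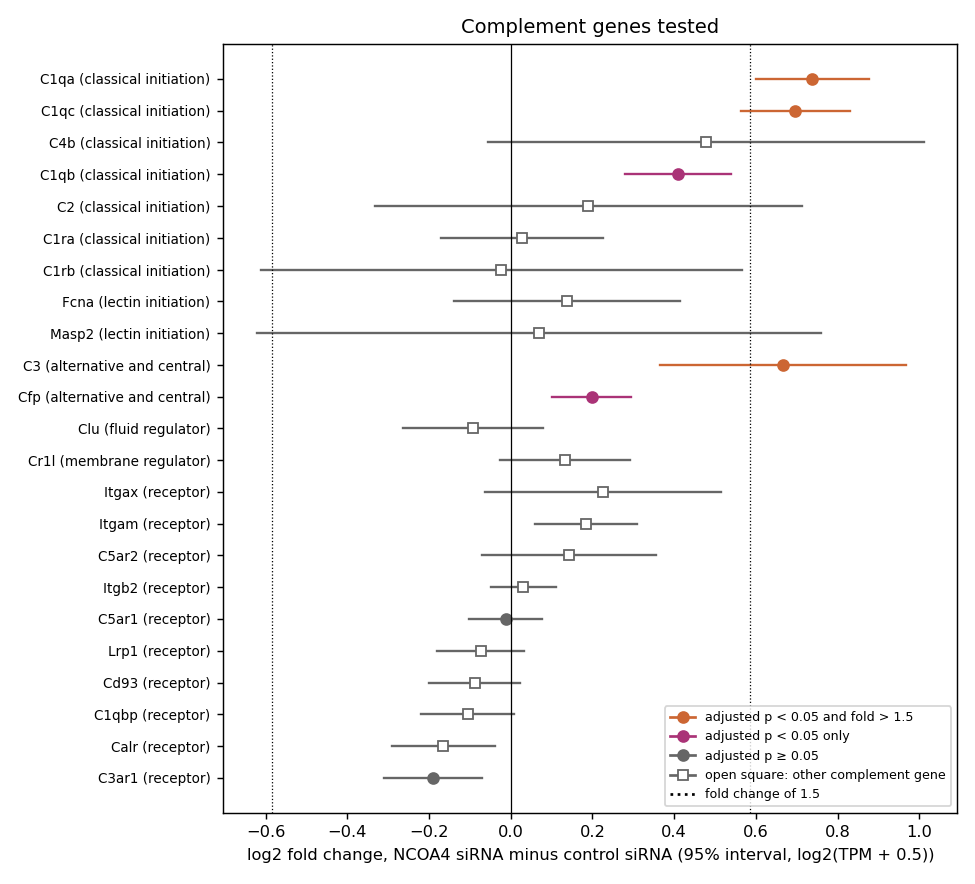
Log2 fold change on the log2(TPM + 0.5) scale, NCOA4 siRNA minus control siRNA, with its 95% interval from limma (horizontal axis), for the complement genes tested and reported here, grouped by role; filled circles are members, open squares the other genes, and dotted lines a fold change of 1.5. C1qa, C1qc and C3 are past the threshold and called, C1qb and Cfp have an adjusted p under 0.05 only, and the 10 receptors lie between -0.19 and 0.23.

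Among 14 transcription factors of macrophages, interferon signalling and the acute phase, 2 rose at an adjusted p under 0.05 and 0 fell. Of all genes tested, 3.11% rose and 2.31% fell at this limit. Maf, a factor of mature macrophages, stood at 36.1, 36.2 and 35.9 TPM with control siRNA and at 59.8, 58.2 and 55.7 TPM with NCOA4 siRNA. Its log2 fold change was 0.67 ± 0.0429 SE (limma, Benjamini-Hochberg-adjusted p = 0.00127), and it was called under all 16 alternatives. Irf1, a factor of interferon signalling, stood at 15.1 ± 0.472 and 22.2 ± 1.47 TPM (SD, n = 3 each), with a log2 fold change of 0.54 (same test, adjusted p = 0.00776). This is under 1.5-fold, so Irf1 was not called, and it was called in 1 of 16 alternatives. Its adjusted p was under 0.05 in 14 of 16. It was 0.0547 without NCOA4 siRNA replicate 2 and 0.0515 with the replicate block. Spi1, which encodes PU.1, stood at 210 ± 15.9 and 218 ± 6.46 TPM (SD, n = 3 each, same test, adjusted p = 0.643).

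The other factors given here did not pass the test. Cebpb, for a factor of the acute phase, stood at 38.7 ± 7.28 and 35.2 ± 4.38 TPM, and Stat3 at 15.4 ± 1.08 and 16.9 ± 0.568 TPM (SD, n = 3 each). The NF-kB subunit genes Nfkb1 and Rela had log2 fold changes of 0.12 and -0.01, Irf8 of -0.14, and Cebpa, Cebpd, Nr1h3 and Pparg of 0.25, 0.34, -0.06 and -0.47. Whether any of these levels has a part in those of the C1q genes or C3 was not tested.

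The genes whose log2(TPM + 0.5) followed the mean of the C1q chains most closely over the 6 libraries were sought among 10031 genes with a mean of at least 5 TPM. They were AC149090.1 (Pearson's r = 0.996), St6gal1 (0.995), Dmpk (0.995), Clec7a (0.995) and Lpcat2 (0.994). Of these, Clec7a, the receptor dectin-1 for fungal glucans, changed most, from 16.9 ± 1.13 to 34.3 ± 1.85 TPM (SD, n = 3 each), and St6gal1, a sialyltransferase, went from 25.9 ± 0.733 to 39.0 ± 0.971 TPM (SD, n = 3 each). For C3 the closest were Tfe3 (0.996), Gmfg (0.992), Fam167b (0.992), Rmnd5b (0.991) and Tmem219 (0.988). A high r does not mean a change of similar size. Tfe3 and Tmem219 had log2 fold changes of 0.12 and 0.16 (limma, Benjamini-Hochberg-adjusted p = 0.180 and 0.127). Gmfg, Fam167b and Rmnd5b had 0.65, 0.38 and 0.65, each with an adjusted p under 0.05. With 6 libraries in 2 groups, such values describe the step between the groups and the spread within them, and the libraries share their depth and scaling.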

How the data were processed

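RNA-seq of J774 cells was compared between 3 control siRNA and 3 NCOA4 siRNA libraries, grouped by their titles. The authors deposited TPM per Ensembl gene and library, with no scaling between libraries. The submitters' processing notes name Trimmomatic (version 0.33), FastQC, HISAT2 (version 2.1.0), featureCounts, edgeR and mm10, with no settings. The authors' edgeR results were not used here. Of 55487 gene identifiers, 55227 took their symbol, position and exonic length from GENCODE M21 (GRCm38, which is mm10).

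Reads were rebuilt as TPM times exonic length over the value of 1 read in each library. With GENCODE lengths, 20759 of the 21096 genes above 0 (98.4%) gave reads within 0.01 of whole numbers in all 6 libraries, the members included. For the other 337 genes the smallest length that gave whole reads was taken, which is no check. Rebuilt reads gave depths and 1 alternative.

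The 13829 genes whose TPM averaged 0.5 or more entered limma (version 3.58.1, under R 4.3.3), fitted to log2(TPM + 0.5) with an eBayes trend, no block and Benjamini-Hochberg adjustment over all of them. Fold changes are on this scale, which understates those of low genes. Called genes were past 1.5-fold with an adjusted p below 0.05. Single values and ratios were tested with an exact two-sided permutation test over 20 arrangements. The test was tried on simulated data with the same spread set for all genes and no outlying library, which is no check of its behaviour in these libraries. Other settings tried were a pseudocount of 1 or 0.1, the filter dropped or raised to a mean of 5 TPM, quantile normalization, centring on the median, mitochondrial genes left out, eBayes without a trend, limma-voom, the replicate block, each library left out, no fold change threshold and the ratio of group means. For Maf and Irf1 they were added after seeing the data. Named are Ncoa4, the members, complement genes at an adjusted p under 0.05 or partners of a member, the listed transcription factors, the 5 genes most correlated with C1q and with C3, and markers of other cell types. Some listed genes are not reported here. The members and all lists were chosen with earlier results of these data known. Intervals and limits of 3 reads cover counting or model error only. Motifs and figures were made with Python 3.11.15.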

Additional observations from a re-analysis of the deposited data

How the results depend on the processing

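Of 266 values under other settings, 235 kept their direction and whether they were called, or a count within 1.5 times. Genes that were never called, such as C1qb and Cfp, thus count as kept. The adjusted p of C1qb was under 0.05 in 13 of 16 alternatives, and that of Cfp in 7 of 16. C1qa, C1qc, Ncoa4 and Maf were called in all 16 tested alternatives. With the 1.5-fold threshold dropped, 5 members and 750 of all genes were called, against 3 and 163 with it. Without the filter on low TPM, 2 genes of the complement list were called, against 4.

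The log2 fold change of C3 stayed at 0.67 but lost its call without the filter (limma, Benjamini-Hochberg-adjusted p = 0.0745), with eBayes without a trend (0.0560) and with the replicate block (0.0668), and it was 0.59 after quantile normalization (0.0506). Over the fits that each leave out 1 library, it ranged from 0.55 to 0.76. That of C5ar1 ranged from -0.033 to 0.0015, turning positive without control replicate 3 (0.0015) or NCOA4 siRNA replicate 2 (0.00078). The log2 difference of the ratio of C1qa to C1qc ranged from -0.027 (without control replicate 3) to 0.13. The counts called ranged from 2 to 3 for members, 2 to 4 for the complement list, and 77 to 172 for all genes with single libraries left out. The cause of these losses was not tested.

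No pairing by replicate number was detected, since deviations from the group means in same-numbered libraries correlated at 0.0283, -0.0185 and 0.0229. With 3 libraries per group, these values cannot settle whether same-numbered libraries were made together. With the replicate block, 87 of all genes and 2 of the complement list were called, and the adjusted p was 0.0677 for C1qb. Cfb and Serping1 had at most 2 reads in a library and could not be compared, while C3 rests on 110 to 224 reads.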
